A study of Mus musculus with 15 samples.

Results

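White adipose tissue stores energy as triglyceride in the single large lipid droplet of each adipocyte, and the mouse mammary gland outside lactation is a tree of epithelial ducts embedded in such fat. The 40 genes described here mark the white adipocyte or carry out the storage and release of its lipid, and they were chosen by name from the table of 52526 genes measured in each mouse. All 40 were found. Left 4th mammary tissue came from 15 female nu/nu nude mice (Crl:NU-Foxn1 nu), a strain without a thymus and therefore short of T cells. Of these, 7 had received BDE-47, a flame retardant congener of the polybrominated diphenyl ethers (PBDE), for 16 weeks, and 8 had received its vehicle, PEG300 with 1% DMSO, over the same time. Both were delivered by subcutaneous osmotic mini-pumps begun after 8 weeks of age, so the implant and the vehicle were shared by both groups. RNA was read with QuantSeq 3′ FWD, which counts the 3′ end of each transcript, as 1 library per mouse. The study's methods name a xenograft in the region as a covariate, and the sample labels do not give it per mouse, so its part in any difference between mice was not tested.

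In the adipocyte, fatty acids are cut from circulating lipoproteins at the vessel wall, taken up, activated, joined to glycerol 3-phosphate as triglyceride and sealed into a droplet under a coat of perilipins. Insulin drives this storage, and adrenergic signals drive its reversal by a chain of lipases. The transcription factors Pparg and Cebpa hold the whole programme in place, and adiponectin, adipsin, resistin and leptin are its secreted products. In whole tissue, fewer cells of a type and less RNA per cell cannot be told apart, so every level below is a level in the piece of tissue and not in the adipocyte.

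The libraries held 10.1 to 19.6 M mapped reads, and 6929 to 12682 genes stood above 1 CPM, the read count of a gene scaled to a library total that is the same for every mouse. Values are log2(CPM), so a difference of 1 between mice above 1 CPM is a 2-fold change. A gene below 1 CPM is listed at 0, which stands for any level under that floor. A mean difference that includes such a mouse is therefore not an exact fold change. Vehicle 6 and vehicle 8 stood apart from the other 13 mice. In them all 10 B cell markers were above 1 CPM (Cd79a at 5.81 and 5.35), whereas 1 or 2 of 10 were in every other mouse, and Cd79a, Cd22, Fcer2a, Blk and Fcmr were among those listed at 0 in all 13. The summed B cell markers were at 10.37 and 11.63 in these 2 mice, against 2.42 to 6.66 in the remaining 6 vehicle mice and 1.20 to 6.14 with BDE-47. Their luminal epithelial markers were also low, at 5.35 and 7.07 against 9.47 to 11.05 in the other vehicle mice. BDE-47 6 stood apart in another way, with summed skeletal muscle markers at 16.42 against 5.39 to 6.83 in the other BDE-47 mice and 5.49 to 7.56 in vehicle mice. Each comparison is therefore given for all 15 mice and for the 13 mice without vehicle 6 and 8. BDE-47 6 was kept in both, and values without it are given for the counts and a few genes. The part of B cell or muscle tissue in these comparisons was not tested.

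All 40 adipocyte genes were detected somewhere, 31 of them above 1 CPM in all 15 mice and 36 in all 13 mice without vehicle 6 and 8. Lep, Pde3b, Aqp7 and Gpam were listed at 0 in at least 1 of the 13. Gpam, the mitochondrial acyltransferase that opens glycerolipid synthesis, was above 1 CPM in vehicle 3 alone (2.33) and listed at 0 in the other mice. It was too rare to test, so 39 genes were tested. Together the 40 genes took 1.85% to 5.49% of mapped reads in the 6 vehicle mice and 1.60% to 3.12% with BDE-47, but 0.120% in vehicle 6 and 0.241% in vehicle 8. The share in 5 of the 6 vehicle mice was above the highest BDE-47 mouse, and vehicle 2, at 1.85%, lay inside the BDE-47 range. Cfd, Fabp4 and Car3 made up most of it, with 1.26% to 3.69% of mapped reads in the 6 vehicle mice and 1.11% to 1.92% with BDE-47.

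**Figure D1:**
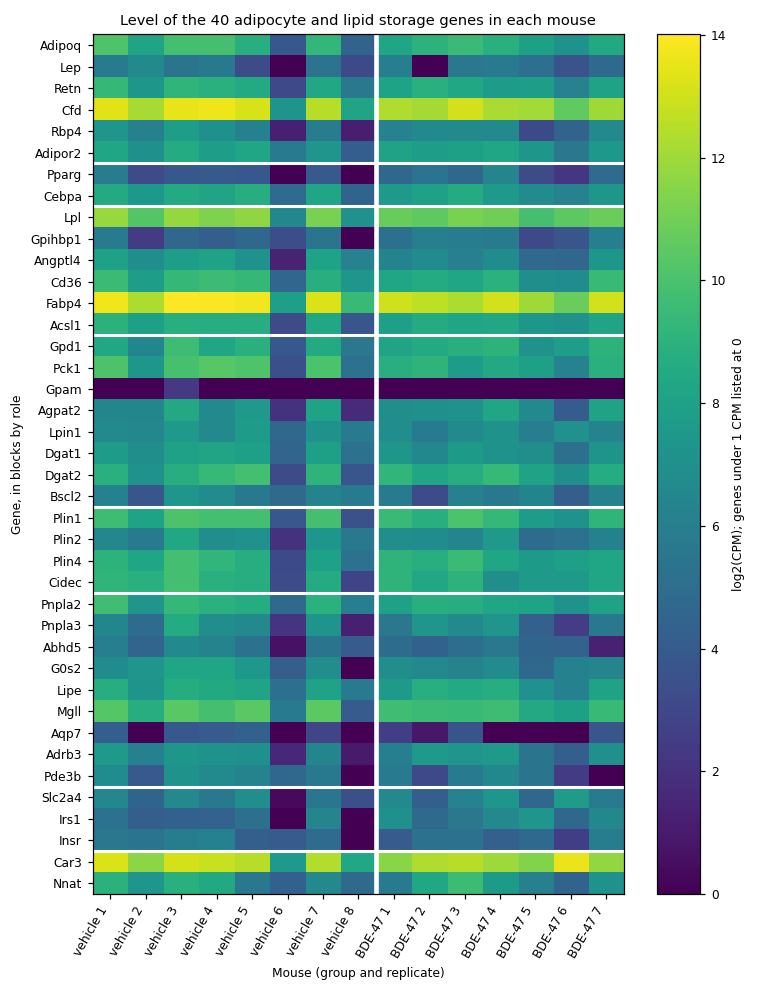
Level of each of the 40 genes (rows, in blocks by role) in each of the 15 mice (columns), coloured by log2(CPM) from 0 to 14, with vehicle mice left of the white line and BDE-47 mice right of it. Vehicle 6 and 8 are the dark columns, and Gpam is dark in every mouse but vehicle 3.

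Vehicle 6 and 8 were low for most of the adipocyte genes. Both were below all 13 other mice for 25 of the 40 genes, and both were below the 6 other vehicle mice for 35, ties at 0 not counted. The same counts were not made over all genes, so whether they are particular to these 40 was not tested. The median gap between their mean and that of the 6 other vehicle mice was 4.09 on the log2 scale. This is a 16.98-fold difference if a gene listed at 0 is taken as 1 CPM. Adiponectin (Adipoq, chr16:23146536-23157968), a hormone made by adipocytes, was at 3.88 and 4.48 in them, and no other mouse was below 7.15. The adipocyte label thus held in 13 mice, in which Adipoq, Cfd, Fabp4, Plin1 and Lipe were all above 1 CPM at the levels given below, and in vehicle 6 and 8 the same genes were present at a fraction of that level.

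**Figure D2:**
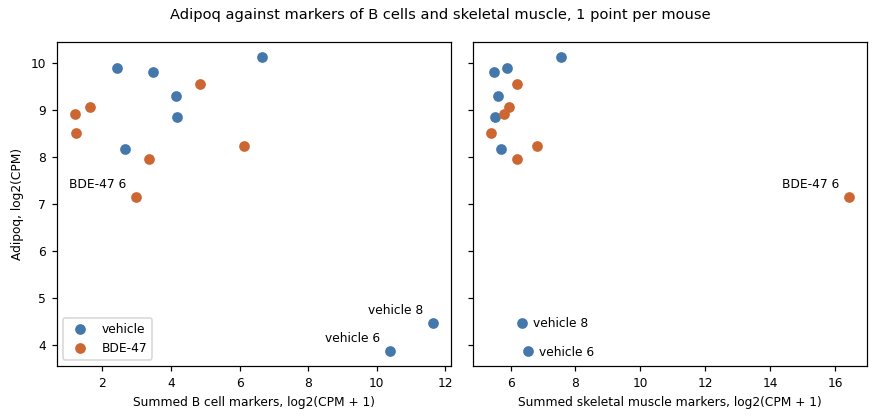
Adipoq, log2(CPM), in each mouse against the summed markers of B cells (left) and of skeletal muscle (right), log2(CPM + 1), with vehicle in blue and BDE-47 in orange. Vehicle 6 and 8 combine the 2 lowest Adipoq values with the 2 highest B cell sums, and BDE-47 6 is alone at the right of the muscle panel with Adipoq at 7.15.

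Promoters of 28 of the 40 genes were listed in the RefSeq table for GRCm38.p6, and a few are shown because the adipocyte factors Pparg and Cebpa act through known letters. Nuclear receptors such as Pparg with its partner Rxra bind the hexamer AGGTCA, in pairs that repeat it in the same direction with 1 base of any kind between, and C/EBP factors bind the palindrome TTGCGCAA. Windows ran from 250 bases before to 50 after the start and were read on both strands, and the single hexamer also lies within the paired form. AGGTCA was in 8 of 28 of these genes (28.6%) and in 18.1% of all 27025 genes with a promoter. The paired form was in 0 of 28 and in 0.0481% of all genes. TTGCGCAA was in 1 of 28 (3.57%), Lep, and in 0.207% of all genes. The 250 bases before the start are printed for adipsin (Cfd, chr10:79890603-79890852, plus strand), with no match, the fatty acid translocase Cd36 (chr5:17835897-17836146, minus strand), the lipase coactivator Abhd5 (chr9:122351366-122351615, plus strand) and leptin (Lep, chr6:29059971-29060220, plus strand), 5′ to 3′ with matches in capitals.
Cfd: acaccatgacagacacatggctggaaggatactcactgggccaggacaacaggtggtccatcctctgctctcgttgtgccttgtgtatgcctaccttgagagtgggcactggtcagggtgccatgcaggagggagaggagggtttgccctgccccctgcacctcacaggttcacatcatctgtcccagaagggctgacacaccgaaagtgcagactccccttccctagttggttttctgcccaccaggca
Cd36: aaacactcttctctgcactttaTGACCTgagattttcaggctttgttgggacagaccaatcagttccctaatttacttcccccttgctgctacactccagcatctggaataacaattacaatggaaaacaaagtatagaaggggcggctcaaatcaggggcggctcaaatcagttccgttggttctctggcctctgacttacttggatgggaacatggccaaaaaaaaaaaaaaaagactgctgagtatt
Abhd5: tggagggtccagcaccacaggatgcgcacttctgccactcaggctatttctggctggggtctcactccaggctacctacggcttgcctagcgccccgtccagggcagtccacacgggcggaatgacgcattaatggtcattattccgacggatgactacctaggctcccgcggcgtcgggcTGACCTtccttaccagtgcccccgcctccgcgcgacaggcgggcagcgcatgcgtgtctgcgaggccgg
Lep: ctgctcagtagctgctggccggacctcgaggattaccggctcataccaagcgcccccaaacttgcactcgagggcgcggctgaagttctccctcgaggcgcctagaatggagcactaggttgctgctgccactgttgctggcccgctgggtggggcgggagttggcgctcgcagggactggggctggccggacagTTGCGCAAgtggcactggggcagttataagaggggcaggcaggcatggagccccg
The capitals in Cd36 and Abhd5 mark AGGTCA read on the opposite strand, beginning at -228 and -69 from the start. Those in Lep mark TTGCGCAA beginning at -55. These matches describe letters and not bound sites, and the means of all 4 genes, Cfd without a match included, were lower with BDE-47 in the 13 mice.

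Across all 15 mice, no adipocyte gene was separated from the spread between mice after correction. By limma, 0 of the 39 genes tested passed an adjusted p of 0.05 (0.0% of the 9506 genes tested did), and at an unadjusted p under 0.05, 1 was higher with BDE-47 (background 1.94%) and 0 were lower (background 2.71%). Means were higher with BDE-47 for 29 genes and lower for 10 (50.9% of all genes tested were lower), and the median difference was 0.33 on the log2 scale against -0.02 over all genes tested. The gene past the unadjusted threshold was Irs1 (chr1:82233105-82291439), the docking protein that carries the insulin signal inward from its receptor. It was listed at 0 in vehicle 8 and stood at 0.04 in vehicle 6, at 4.22, 4.76 and 6.37 (lowest, median and highest) in the other 6 vehicle mice, and at 4.68, 6.52 and 7.33 with BDE-47. Its mean was 2.36 ± 0.80 higher with BDE-47 (log2 difference ± limma standard error, n = 8 and 7, adjusted p = 0.982 by limma, exact permutation p = 0.0197, two-sided).

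Without vehicle 6 and 8, the same 39 genes lay mostly on the other side of 0. Both mice were below the 6 other vehicle mice for 35 of the 40 genes, so leaving them out lowers those differences by construction. The p-values of this fit take that choice as given. Means were lower with BDE-47 for 34 of 39 genes (53.4% of all genes tested were lower), and the median difference was -0.74 on the log2 scale, against -0.07 over all genes. At an unadjusted limma p under 0.05, 16 genes were lower (background 2.85%) and 0 were higher (background 1.65%). None of the 39 passed correction over the 9506 genes (background 0.0%), where the lowest adjusted p was 0.515 by limma, shared by Cfd, Fabp4 and Pck1. In 10 of the 16, all 7 BDE-47 mice were below the median of the 6 vehicle mice, which was not counted over all genes. The genes varied together from mouse to mouse, as described below, so these counts are not of independent genes. No gene had groups that did not overlap (background 0.021% lower and 0.0105% higher), and vehicle 2 was the lowest of the 6 vehicle mice for 32 of the 40 genes. By the exact permutation test, two-sided, 12 genes were lower at p under 0.05 (background 2.5%), 11 of them among those 16, and 0 were higher (background 1.74%), and the smallest p that 6 against 7 mice allow is 0.000583. A mean log2 difference below -1 was seen in 9 genes (background 14.2%) and above 1 in Irs1 alone (background 12.8%).

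The count of 16 changed with the mice kept. With each of the other 13 mice left out as well, it was between 12 and 21, at its highest without vehicle 2 and at 13 without BDE-47 6, the mouse with the muscle markers. Without vehicle 2 as well, Cfd, Fabp4 and Pck1 passed correction by limma (adjusted p = 0.0438, 0.00724 and 0.00385). Without BDE-47 6 instead, the differences were -0.65 for Adipoq, -0.76 for Cfd, -0.82 for Fabp4, -1.18 for Pck1 and -1.31 for Angptl4. With it they were -0.87, -1.01, -1.08, -1.50 and -1.56. For Irs1 the difference was 1.36 without that mouse and 1.13 with it. By limma 0 members passed correction without BDE-47 6, with 13 lower and 1 higher at an unadjusted p under 0.05. The values of single genes below include that mouse. The median difference stayed between -0.94 and -0.56 in these fits. BDE-47 6 was the lowest BDE-47 mouse for 23 of the 40 genes, which was not counted over all genes. This library ran low more widely. Over all genes above 1 CPM in every mouse, its median deviation from the gene mean was -0.57 on the log2 scale. In the other mice it was between 0.0072 and 0.37. Fits scaled for this deviation (median-of-ratios scaling) are given below.

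**Figure D3:**
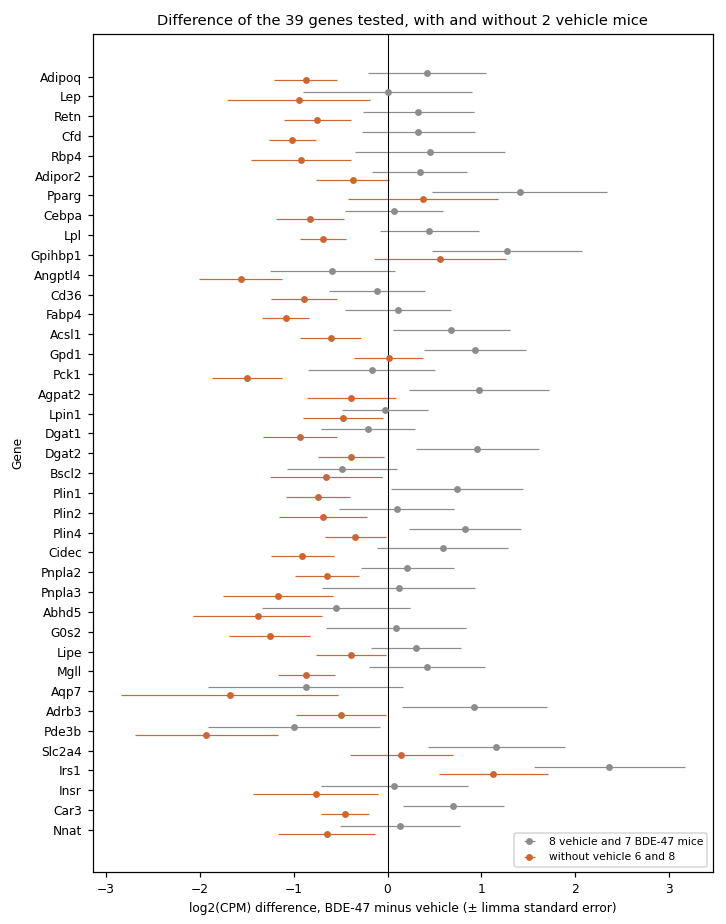
Difference in mean log2(CPM), BDE-47 minus vehicle, for the 39 genes tested, with bars of ± 1 limma standard error, in all 15 mice (grey) and without vehicle 6 and 8 (orange). Most grey points are right of 0 and 34 of 39 orange points are left of it, with Irs1 furthest right in both.

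The secreted products of the adipocyte and the receptor Adipor2 had lower means with BDE-47 in the 13 mice. All 6 of these genes were below vehicle (background 53.4%), and 3 of 6 were past the unadjusted limma threshold (background 2.85%). Adipsin (Cfd, chr10:79890853-79892655) is the serine protease complement factor D. Its lowest, median and highest log2(CPM) were 12.17, 13.27 and 13.63 in the 6 vehicle mice and 10.57, 12.14 and 13.03 with BDE-47, beside 7.25 and 8.17 in vehicle 6 and 8. All 7 BDE-47 mice were below the vehicle median and 4 were below every one of the 6, although the groups overlapped through vehicle 2 and vehicle 7. The difference was -1.01 ± 0.25 in the 13 mice, a 2.02-fold lower level (exact permutation p = 0.0175, two-sided, n = 6 and 7), and 0.33 ± 0.60 in all 15. Adipoq was at 8.16, 9.54 and 10.13 in the 6 vehicle mice and at 7.15, 8.50 and 9.54 with BDE-47. Again all 7 were below the vehicle median, with BDE-47 5 and BDE-47 6 below the lowest of the 6. Its difference was -0.87 ± 0.33 (exact permutation p = 0.0664, two-sided, n = 6 and 7), with a 95% interval from -1.52 to -0.22, and 0.42 ± 0.63 in all 15. Resistin (Retn), a small cysteine-rich hormone, was at 7.44, 8.71 and 9.35 against 6.20, 8.05 and 8.87. Only BDE-47 2 was above the vehicle median, and the difference was -0.75 ± 0.36 (exact permutation p = 0.104, n = 6 and 7).

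The other 3 of this group overlapped widely. Leptin (Lep), the hormone that reports fat stores to the brain, was at 3.28, 5.53 and 6.71 in the 6 vehicle mice and at 0, 5.13 and 6.00 with BDE-47, and its difference was -0.94 ± 0.76. BDE-47 2 was listed at 0, and the other 6 BDE-47 mice were between 3.66 and 6.00. The retinol carrier Rbp4 was at 5.92, 6.59 and 7.81 against 3.13, 6.59 and 6.73, a difference of -0.92 ± 0.53, with BDE-47 5 and BDE-47 6 low. The adiponectin receptor Adipor2 was at 7.01, 8.03 and 8.61 against 5.53, 7.84 and 8.22, a difference of -0.37 ± 0.39, and 6 of 7 BDE-47 mice lay within the vehicle range. With vehicle 6 and 8 included the differences were 0.33 ± 0.59 for Retn, -0.000103 ± 0.90 for Lep, 0.45 ± 0.80 for Rbp4 and 0.34 ± 0.51 for Adipor2.

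Of the 2 transcription factors, 1 was lower past the unadjusted threshold in the 13 mice (background 2.85%), and the difference between them was not tested. Cebpa (chr7:35119293-35121928), which sustains the mature adipocyte, was at 7.47, 8.38 and 8.71 in the 6 vehicle mice and at 6.20, 7.58 and 8.63 with BDE-47. BDE-47 3 was above the vehicle median and the other 6 were below it, and the difference was -0.83 ± 0.36 (exact permutation p = 0.046, two-sided, n = 6 and 7), and 0.07 ± 0.52 in all 15 mice. Pparg (chr6:115360879-115490404), the nuclear receptor that starts fat cell formation, was at 3.23, 3.88 and 5.91 against 2.22, 4.71 and 6.38, and at 0 in both vehicle 6 and 8. Its difference was 0.38 ± 0.80 in the 13 mice, with a 95% interval from -1.20 to 1.95 that holds 2-fold changes in either direction, and 1.41 ± 0.94 in all 15.

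Among the genes of fatty acid release, uptake and activation, 4 of 6 were lower past the unadjusted threshold in the 13 mice (background 2.85%). Lipoprotein lipase (Lpl, chr8:68880555-68906932) frees fatty acids from circulating triglyceride. It was at 10.28, 11.50 and 11.83 in the 6 vehicle mice, at 9.85, 10.76 and 11.21 with BDE-47 and at 6.54 and 7.11 in vehicle 6 and 8. All 7 BDE-47 mice were below the vehicle median, with only BDE-47 5 below vehicle 2, and the difference was -0.69 ± 0.25 (exact permutation p = 0.0367, two-sided, n = 6 and 7). Angptl4 (chr17:33774900-33781575), a secreted inhibitor of that lipase, was at 7.00, 7.91 and 8.11 against 4.60, 6.29 and 7.43. Of the 7 BDE-47 mice 6 were below every one of the 6 vehicle mice, and BDE-47 7 was the exception. Its difference of -1.56 ± 0.45 was a 2.96-fold lower level (exact permutation p = 0.00641, two-sided, n = 6 and 7). In all 15 mice it was -0.59 ± 0.67, negative there too, with vehicle 6 at 1.36 and vehicle 8 at 6.22.

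Fabp4 (chr3:10204342-10208616), the fatty acid carrier of the adipocyte cytoplasm, was at 12.29, 13.74 and 14.01 in the 6 vehicle mice and at 10.83, 12.68 and 13.07 with BDE-47. Every BDE-47 mouse was below the vehicle median, and vehicle 2 fell among them. The difference was -1.08 ± 0.25, 2.12-fold lower (exact permutation p = 0.0192, two-sided, n = 6 and 7), against 0.11 ± 0.56 in all 15 mice. Cd36, whose promoter is printed above, was at 7.88, 9.31 and 9.61 against 6.83, 8.31 and 9.43, with only BDE-47 7 above the vehicle median, and its difference was -0.88 ± 0.35 (exact permutation p = 0.0857, n = 6 and 7). Acsl1, which joins fatty acids to coenzyme A, was at 7.94, 8.73 and 8.99 against 7.17, 8.15 and 8.61, all 7 below the vehicle median. Its difference of -0.60 ± 0.33 passed the exact permutation test (p = 0.0414, n = 6 and 7) and missed the unadjusted limma threshold. Gpihbp1, which anchors the lipase to capillary endothelium, had a higher mean with BDE-47, at 2.504, 4.66 and 5.75 against 3.10, 5.75 and 6.06, a difference of 0.56 ± 0.70 with overlapping groups. With vehicle 6 and 8 included the differences were 0.44 ± 0.53 for Lpl, -0.11 ± 0.51 for Cd36, 0.68 ± 0.62 for Acsl1 and 1.27 ± 0.80 for Gpihbp1.

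**Figure D4:**
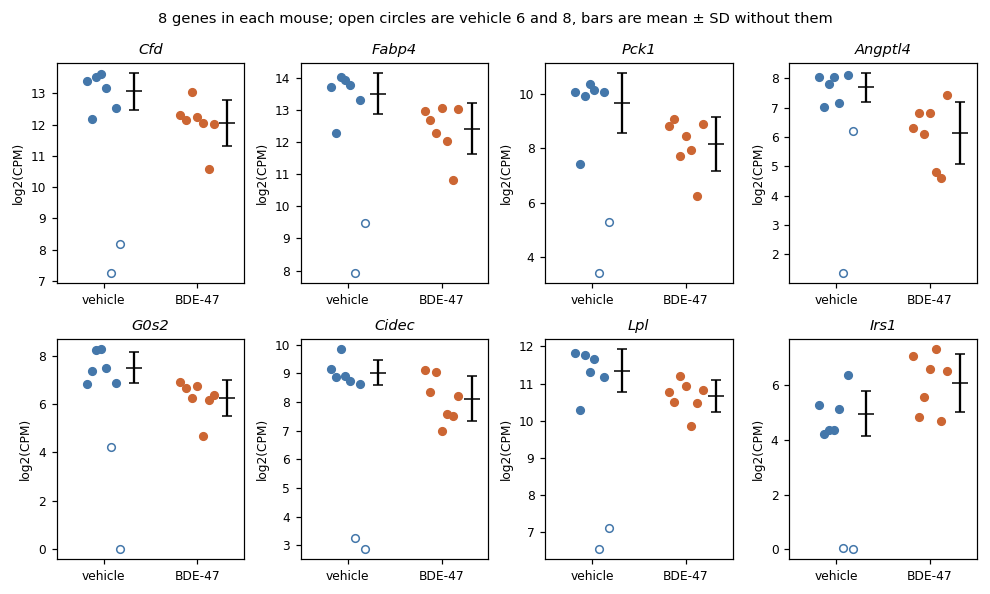
Level in each mouse, log2(CPM), of 7 genes with lower means with BDE-47 in the 13 mice and of Irs1, with vehicle in blue and BDE-47 in orange. Open circles are vehicle 6 and 8, and bars are the mean ± SD without them (n = 6 and 7). In Angptl4 and G0s2, 6 of 7 BDE-47 mice lie below all 6 filled vehicle points.

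Of the triglyceride synthesis genes, 2 of the 7 tested were lower past the unadjusted threshold (background 2.85%). Pck1 (chr2:173153073-173159274) makes the glycerol backbone in fat cells from smaller precursors. It was at 7.43, 10.06 and 10.38 in the 6 vehicle mice and at 6.23, 8.47 and 9.09 with BDE-47, beside 3.41 and 5.28 in vehicle 6 and 8. Of the 6 vehicle mice, 5 were above every BDE-47 mouse, and vehicle 2, at 7.43, was the exception. The difference was -1.50 ± 0.37, 2.82-fold lower (exact permutation p = 0.0303, two-sided, n = 6 and 7), and -0.17 ± 0.68 in all 15. Dgat1, which adds the last fatty acid, was at 6.98, 7.95 and 8.19 against 5.15, 7.17 and 7.63, all 7 below the vehicle median, with a difference of -0.93 ± 0.40 (exact permutation p = 0.0163, n = 6 and 7). Its counterpart Dgat2 was at 7.21, 9.01 and 9.83 against 7.00, 8.68 and 9.38, a difference of -0.38 ± 0.35. The difference between the 2 enzymes was not tested.

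The remaining synthesis genes overlapped between groups. Gpd1, which makes glycerol 3-phosphate from a glycolytic intermediate, was at 6.42, 8.46 and 9.63 in the 6 vehicle mice and at 7.22, 8.58 and 9.06 with BDE-47, a difference of 0.01 ± 0.37. The acyltransferase Agpat2 was at 6.43, 7.11 and 8.47 against 4.10, 7.05 and 8.26, a difference of -0.38 ± 0.47, and BDE-47 6 was far below the others. The phosphatidate phosphatase Lpin1 was at 6.49, 6.90 and 7.68 against 5.79, 6.65 and 7.21, a difference of -0.47 ± 0.42. Seipin (Bscl2), which shapes the nascent droplet, was at 3.73, 6.23 and 7.38 against 3.18, 5.76 and 6.32, a difference of -0.66 ± 0.60. In all 15 mice the differences of the synthesis genes other than Pck1 were -0.21 ± 0.50 for Dgat1, 0.96 ± 0.66 for Dgat2, 0.93 ± 0.55 for Gpd1, 0.97 ± 0.75 for Agpat2, -0.03 ± 0.46 for Lpin1 and -0.49 ± 0.59 for Bscl2.

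The droplet coat genes all had lower means with BDE-47 in the 13 mice (background 53.4%), and 2 of 4 were past the unadjusted threshold (background 2.85%). Cidec (chr6:113424634-113435760), which fuses droplets into one, was at 8.64, 8.88 and 9.85 in the 6 vehicle mice and at 7.00, 8.22 and 9.11 with BDE-47. BDE-47 1 and BDE-47 3 were within the vehicle range, and the other 5 were below all 6 vehicle mice. The difference was -0.91 ± 0.33 (exact permutation p = 0.0344, two-sided, n = 6 and 7), against 0.59 ± 0.70 in all 15 mice, where vehicle 6 and 8 were at 3.24 and 2.86. Perilipin 1 (Plin1, chr7:79721164-79732904), the gatekeeper of the adipocyte droplet, was at 8.11, 9.83 and 10.12 against 7.12, 9.17 and 10.03. BDE-47 3 was above the vehicle median, and the difference was -0.74 ± 0.34 (exact permutation p = 0.17, n = 6 and 7). Plin2, found on droplets in most cells, was at 5.75, 6.97 and 8.33 against 4.93, 6.40 and 7.60, a difference of -0.69 ± 0.47. Plin4 was at 8.00, 8.87 and 9.80 against 7.63, 8.30 and 9.53, a difference of -0.34 ± 0.33. With vehicle 6 and 8 included the differences were 0.74 ± 0.70 for Plin1, 0.10 ± 0.61 for Plin2 and 0.83 ± 0.60 for Plin4.

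The lipolysis genes had lower means in 9 of 9 (background 53.4%), and 4 were past the unadjusted threshold (background 2.85%). Among these 4 were both a coactivator and an inhibitor of the first lipase. That lipase, Pnpla2 (chr7:141455188-141460743), was at 7.33, 8.94 and 9.71 in the 6 vehicle mice and at 7.19, 8.11 and 8.86 with BDE-47. All 7 were below the vehicle median, and the difference was -0.64 ± 0.34 (exact permutation p = 0.121, n = 6 and 7). G0s2 (chr1:193272160-193273188), its inhibitor, was at 6.82, 7.42 and 8.27 against 4.69, 6.36 and 6.90, with 4.24 and 0 in vehicle 6 and 8. In 6 of 7 BDE-47 mice it was below all 6 vehicle mice, and BDE-47 1 was the exception. The difference of -1.25 ± 0.43 was a 2.39-fold lower level (exact permutation p = 0.00233, two-sided, n = 6 and 7), and it was 0.09 ± 0.75 in all 15 mice. Abhd5 (chr9:122351616-122381524), its coactivator, was at 4.56, 5.69 and 6.70 against 1.31, 4.52 and 5.59. All 7 BDE-47 mice were below the vehicle median, BDE-47 7 far below the rest, and the difference was -1.38 ± 0.68 (exact permutation p = 0.0285, n = 6 and 7). It was -0.55 ± 0.79 in all 15 mice.

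The lipase that frees the last fatty acid, Mgll, was at 8.73, 10.36 and 10.49 in the 6 vehicle mice and at 7.93, 9.51 and 9.70 with BDE-47, all 7 below the vehicle median. Its difference was -0.86 ± 0.30 (exact permutation p = 0.0443, two-sided, n = 6 and 7). Hormone-sensitive lipase (Lipe), which acts between Pnpla2 and Mgll, was at 7.24, 8.34 and 8.73 against 6.15, 8.07 and 8.78, a difference of -0.39 ± 0.37 with 3 of 7 BDE-47 mice above the vehicle median. Pde3b, the phosphodiesterase through which insulin restrains lipolysis, was at 3.89, 6.45 and 7.20 against 0, 5.37 and 6.56. Its difference of -1.93 ± 0.76 was the lowest of the 39 (exact permutation p = 0.0938, n = 6 and 7) and included BDE-47 7, listed at 0. The adrenergic receptor of fat, Adrb3, was at 6.13, 7.09 and 7.58 against 4.26, 7.02 and 7.60, a difference of -0.50 ± 0.48. Pnpla3, a relative of Pnpla2, was at 4.89, 6.75 and 8.61 against 2.57, 5.61 and 7.33, a difference of -1.16 ± 0.58. The glycerol channel Aqp7 was above 1 CPM in 5 of the 6 vehicle mice, up to 4.36, and in 4 of 7 BDE-47 mice, up to 3.73, a difference of -1.68 ± 1.16. For these lipolysis genes the all-mice differences (n = 8 and 7) were 0.21 ± 0.50 for Pnpla2, 0.42 ± 0.61 for Mgll, 0.30 ± 0.48 for Lipe, -0.9966 ± 0.92 for Pde3b, 0.92 ± 0.77 for Adrb3, 0.12 ± 0.81 for Pnpla3 and -0.87 ± 1.04 for Aqp7.

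Of the insulin response genes, 0 of 3 were past the unadjusted limma threshold in either direction in the 13 mice (background 2.85% lower and 1.65% higher). Irs1 was 1.13 ± 0.58 higher with BDE-47 (exact permutation p = 0.06, two-sided, n = 6 and 7), with 6 of 7 BDE-47 mice above the vehicle median, and vehicle 7 at 6.37 inside the BDE-47 range. Its sign was thus the same with and without vehicle 6 and 8, and the size was 2.36 and 1.13. The insulin receptor Insr was at 4.24, 5.47 and 6.18 against 2.60, 4.80 and 5.90, a difference of -0.76 ± 0.67. The insulin-regulated glucose transporter Slc2a4, which is also abundant in muscle, was at 4.51, 6.07 and 6.90 against 4.26, 6.20 and 7.73, a difference of 0.15 ± 0.55. Its highest value was in BDE-47 6, the mouse with the muscle markers. With vehicle 6 and 8 included the differences were 0.07 ± 0.78 for Insr and 1.16 ± 0.73 for Slc2a4.

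Carbonic anhydrase 3 (Car3), abundant in adipocytes and in slow muscle, was at 11.55, 12.69 and 13.26 in the 6 vehicle mice and at 11.37, 11.95 and 13.61 with BDE-47, a difference of -0.45 ± 0.25. Its highest value was again in BDE-47 6, and the other 6 BDE-47 mice were below the vehicle median. Neuronatin (Nnat), a small membrane protein of the endoplasmic reticulum, was at 5.61, 7.94 and 9.00 against 4.53, 7.12 and 9.62, a difference of -0.65 ± 0.52. It lies within Blcap on the opposite strand, and whether reads were counted by strand is not given in the sources used here. With vehicle 6 and 8 included the differences were 0.70 ± 0.54 for Car3 and 0.13 ± 0.64 for Nnat.

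A further 62 genes of lipid handling and adipocyte control were listed, of which 61 were found and 54 tested. In all 15 mice 3 were higher and 2 were lower at an unadjusted limma p under 0.05, and in the 13 mice 1 was higher and 8 were lower, beside the same backgrounds as above. The median difference of the 54 was 0.17 in all 15 mice and -0.39 in the 13. Ebf1, a transcription factor of fat cell precursors and of B cells, was lower in both fits, at -1.35 ± 0.52 and -1.38 ± 0.55 on the log2 scale. It ran from 6.12 to 7.16 in the 6 vehicle mice and from 3.15 to 6.93 with BDE-47, and stood at 6.16 and 6.65 in vehicle 6 and 8. Lipa, the lysosomal acid lipase, was -2.47 ± 0.92 in all 15 mice and -2.28 ± 1.07 in the 13, running from 3.53 to 4.94 in the 6 vehicle mice and from 0 to 4.72 with BDE-47. Trip10, an adaptor linked to glucose transporter traffic, was higher in both, by 2.36 ± 1.05 and 2.37 ± 1.17, with 7 of 7 BDE-47 mice and 3 of the 6 vehicle mice above 1 CPM.

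The genes called in only one of the fits were these. In all 15 mice the perilipin of oxidative tissues, Plin5, was higher by 1.80 ± 0.83 and the adiponectin-binding cadherin Cdh13 by 2.15 ± 0.93, and both were listed at 0 in vehicle 6 and 8. Of the 6 other vehicle mice, 2 had Plin5 and 5 had Cdh13 above 1 CPM, and all 7 BDE-47 mice had both. In the 13 mice the differences of Plin5 and Cdh13 were 1.60 ± 0.99 and 1.16 ± 0.78. In the 13 mice the lower genes were the caveolar protein Cavin2 (-0.90 ± 0.37), the droplet galectin Lgals12 (-1.56 ± 0.55), the acyltransferase Agpat3 (-1.50 ± 0.68), the fatty acid transporter Slc27a1 (-1.74 ± 0.83), the protein kinase A subunit Prkar2b (-1.19 ± 0.59) and the acute phase protein Orm1 (-1.57 ± 0.60). In all 15 mice the differences of these 6 lay between -0.97 (Agpat3) and 0.35 (Prkar2b). The precursor factor Zfp423 (-2.21 ± 1.19) and Hilpda (1.70 ± 1.02), a droplet protein that restrains Pnpla2, had the largest remaining differences in each direction and did not pass. None of the 54 passed correction by limma in either fit.

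The adipocyte genes varied together from mouse to mouse. Over the 465 pairs of the 31 genes above 1 CPM in every mouse, the median Pearson's r was 0.851 in all 15 mice, where vehicle 6 and 8 formed a separate cluster, and 0.657 in the 13, while over all pairs of the 2577 genes above 1 CPM in every mouse it was 0.025 and 0.0447. Within the 6 vehicle mice it was 0.727, within the 7 BDE-47 mice 0.621, and without BDE-47 6 as well (12 mice) 0.590. In the 13 mice 95.7% of pairs were positive. These correlations are a description, because the points share a library each. The genes that followed the rest most closely in the 13 mice were Acsl1 (median r with the others 0.825), Mgll (0.812) and Plin1 (0.799), and those that did so least were Slc2a4 (-0.00029), Car3 (0.179) and Lpin1 (0.265). Slc2a4 and Car3 are the 2 genes noted above for their high values in BDE-47 6.

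Adipoq was used as the axis to describe this covariation, with 50 relations computed, 37 of them to the other genes above 1 CPM in at least 12 mice. Because of that cluster, no pooled value is given for a single gene and the 13 mice are described. There r was positive for 35 of 37 genes, with a median of 0.738, and 22 passed a permutation p of 0.05 after Benjamini-Hochberg adjustment over the 50. Over the 5499 other genes above 1 CPM in at least 12 mice, these 37 included, 69.8% had a positive r with Adipoq, the median was 0.155, and 2.73% were at or above 0.658, the lowest r of those 22. The median r was 0.709 within the 6 vehicle mice and 0.709 within the 7 BDE-47 mice. Pnpla2 had the highest value (r = 0.926, rho = 0.94, permutation p = 1e-05 and 2e-05, adjusted p = 0.00025 and 0.001), and 1e-05 is the smallest p these permutations can give. Acsl1 followed (r = 0.909, rho = 0.852, permutation p = 2e-05 and 0.00042, adjusted p = 0.000333 and 0.00662) and then Retn (r = 0.900, rho = 0.868, permutation p = 1e-05 and 0.00022, adjusted p = 0.00025 and 0.0055). Without BDE-47 6 and vehicle 1, the mice farthest from the median of Adipoq, r was 0.864, 0.821 and 0.796 for these 3. Within the groups r was 0.933, 0.829 and 0.942 in the 6 vehicle mice and 0.926, 0.907 and 0.829 with BDE-47.

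At the other end stood Irs1 (r = -0.256, rho = -0.236, permutation p = 0.395 and 0.436, adjusted p = 0.474 and 0.561), Slc2a4 (r = -0.0497, rho = -0.0824, permutation p = 0.871 and 0.793, adjusted p = 0.880 and 0.862) and Lep (r = 0.115, rho = 0.192, permutation p = 0.715 and 0.529, adjusted p = 0.760 and 0.645). Without BDE-47 6 and vehicle 1 these were -0.538, 0.281 and -0.0931. Within the groups they were 0.115, 0.548 and -0.021 in vehicle and -0.0124, -0.321 and -0.0524 with BDE-47. For Car3 r was 0.337 in the 13 mice (rho = 0.527, adjusted permutation p = 0.344 and 0.122) and 0.951 without BDE-47 6 and vehicle 1, and it was 0.948 within the 6 vehicle mice and -0.26 with BDE-47. Of all 2577 genes searched in the 13 mice, the 5 most like Adipoq were Pnpla2, Cyb5a (r = 0.910), Acsl1, Retn and Cfd (r = 0.896), 4 of which are in the list of 40.

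**Figure D5:**
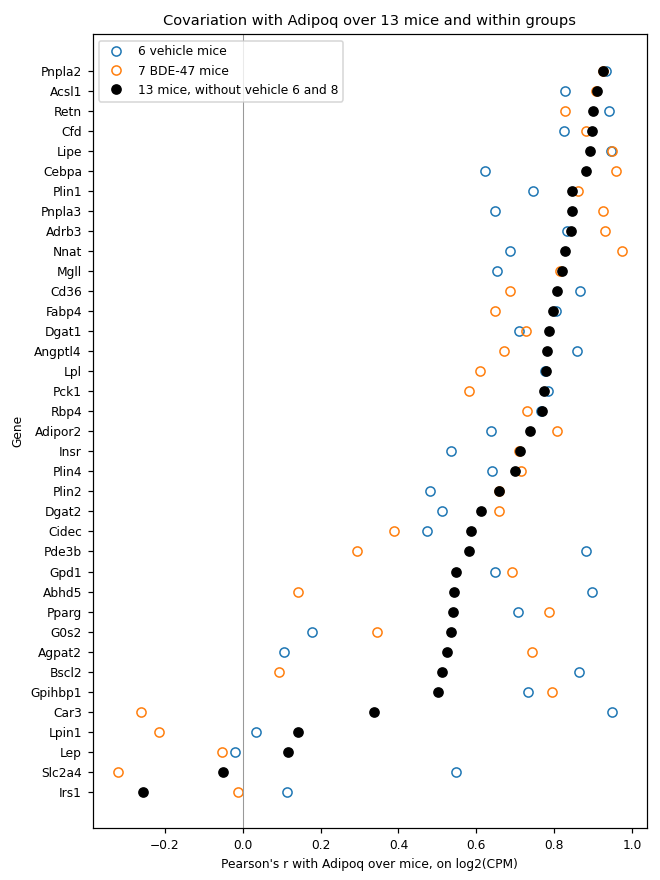
Pearson's r with Adipoq over mice, on log2(CPM), for 37 genes in order of r in the 13 mice without vehicle 6 and 8 (black), with r within the 6 vehicle mice (blue) and within the 7 BDE-47 mice (orange). In the 13 mice only Irs1 and Slc2a4 lie left of 0, and 3 genes lie at or above 0.900.

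Markers of other tissue moved with these genes in part. In the 13 mice the summed endothelial markers were 0.77 lower with BDE-47 (exact permutation p = 0.0425, two-sided, n = 6 and 7), at 7.02 to 8.58 in vehicle and 5.52 to 7.69 with BDE-47, with 4 to 6 and 3 to 6 of 6 markers above 1 CPM. The summed basal epithelial markers were 0.69 lower (exact permutation p = 0.0903, n = 6 and 7), at 8.32 to 9.19 and 5.81 to 8.80. Luminal markers were 0.10 higher (exact permutation p = 0.918, n = 6 and 7). BDE-47 6 was the lowest of the 13 mice in all 3 sums, at 5.52, 5.81 and 7.56, and it is part of these 3 differences. The other 6 BDE-47 mice were at 6.75 to 7.69 for endothelial, 7.96 to 8.80 for basal and 10.87 to 11.64 for luminal markers. Luminal sums in the 6 vehicle mice were at 9.47 to 11.05. The differences without BDE-47 6 were not tested. With Adipoq, the 13-mouse r was 0.755 for basal epithelial markers (rho = 0.709, adjusted permutation p = 0.00383 and 0.0239) and 0.697 for endothelial markers (rho = 0.494, adjusted permutation p = 0.0167 and 0.148), and without BDE-47 6 and vehicle 1 it was 0.51 and 0.434. For the blood markers it was 0.641 (rho = 0.549, adjusted permutation p = 0.0355 and 0.106), and 0.480 without those 2 mice. The part of these tissues in the lower adipocyte gene levels was not tested.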

How the data were processed

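Left 4th mammary tissue of 8 vehicle and 7 BDE-47 mice was read with QuantSeq 3′ FWD, and groups came from the treatment labels. The authors mapped reads with STAR 2.5.3a to GRCm38 per the labels and deposited log2 values of CPM, with genes under 1 CPM at 0, and this floor was read from the values. Counting settings and annotation are not given in the sources used here. Of 52636 entries per mouse, 110 with repeated names were dropped. Depth was recovered from the steps of low CPM values.

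Genes above 1 CPM in at least 7 mice (9506) were compared with limma 3.58.1 (trended empirical Bayes, Benjamini-Hochberg adjustment over all genes tested) in R 4.3.3, two-sided, and single genes with exact permutation tests over 6435 splits of 15 mice or 1716 of 13. Intervals are 1.96 standard errors on each side. Correlations had 100000 permutations. Motifs and coordinates came from RefSeq tables of GRCm38.p6. Python 3.11.15, numpy 2.4.6, scipy 1.17.1, pandas 2.3.3 and matplotlib 3.10.9 were used. Scripts were tested on simulated data. P-values measure the spread between mice, and no technical replicates were available to part it from measurement error.

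The 40 genes, the further lipid genes, the marker lists and the fit without vehicle 6 and 8 were chosen with earlier results of these data known. Named genes followed a rule: all 40, further genes with an unadjusted limma p under 0.05 or the 2 largest differences in each direction, the 3 highest and 3 lowest correlations with Adipoq, and the 5 genes most like it. Alternatives were log2(CPM + 1) and log2(CPM + 0.1), no filter or all-mouse detection, median-of-ratios scaling, no trend, array weights, the replicate number as a block and each mouse left out.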

Additional observations from a re-analysis of the deposited data

Results flagged for a closer look

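In 100 groups tested (40 genes and 10 marker sums in each of the 2 treatments), 19 had a mouse whose gap to its nearest neighbour was too large a part of the group's range by Dixon's test at the 95% level, where chance flags about 1 in 20. All values are log2(CPM), or log2(CPM + 1) for marker sums.

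BDE-47 6 was far below the other BDE-47 mice for 4 genes, in a library where genes above 1 CPM in every mouse also ran low (median deviation -0.57). Cfd was at 10.57 against 12.02 to 13.03, and Retn was at 6.20 against 7.74 to 8.87. Adipor2 was at 5.53 against 7.41 to 8.22, and Agpat2 was at 4.10 against 6.67 to 8.26. The same mouse was far off in 4 marker sums. Its skeletal muscle markers were at 16.42 against 5.39 to 6.83. Its luminal epithelial markers were at 7.56 against 10.87 to 11.64, its basal epithelial markers at 5.81 against 7.96 to 8.80, and its endothelial markers at 5.52 against 6.75 to 7.69.

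Vehicle 6 was far below the other vehicle mice, vehicle 8 included, for 4 genes. These were Angptl4 at 1.36 against 6.22 to 8.11, Cd36 at 4.62 against 7.35 to 9.61, Plin2 at 2.04 against 5.62 to 8.33, and Abhd5 at 0.69 against 4.01 to 6.70. Vehicle 8 was listed at 0 for Pde3b, where the others were at 3.89 to 7.20, and at 0 for Insr, where they were at 4.01 to 6.18.

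The remaining flags fell on 5 mice. Lep was listed at 0 in BDE-47 2 against 3.66 to 6.00. Abhd5 was at 1.31 in BDE-47 7 against 4.37 to 5.59, and G0s2 was at 4.69 in BDE-47 5 against 6.17 to 6.90. Gpam was at 2.33 in vehicle 3 and listed at 0 in the other vehicle mice. The keratinocyte markers summed to 5.72 in vehicle 1 against 4.39 to 4.83 in the other vehicle mice. The cause of these values was not tested.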

How the results depend on the processing

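Without vehicle 6 and 8 the median difference of the 39 genes was -0.74 in place of 0.33, the lower calls were 16 in place of 0, the higher calls 0 in place of 1, and the median pairwise r 0.657 in place of 0.851. The sign turned for 24 genes, with a log2 difference of -0.87 for Adipoq, -0.75 for Retn, -1.01 for Cfd, -0.92 for Rbp4, -0.37 for Adipor2, -0.83 for Cebpa, -0.69 for Lpl, -1.08 for Fabp4, -0.60 for Acsl1, -0.38 for Agpat2, -0.38 for Dgat2, -0.74 for Plin1, -0.69 for Plin2, -0.34 for Plin4, -0.91 for Cidec, -0.64 for Pnpla2, -1.16 for Pnpla3, -1.25 for G0s2, -0.39 for Lipe, -0.86 for Mgll, -0.50 for Adrb3, -0.76 for Insr, -0.45 for Car3 and -0.65 for Nnat. With each of the 15 mice left out in turn, the median difference ran from -0.18 to 0.57, negative without vehicle 6 or vehicle 8, with 1 to 2 higher and 0 to 1 lower calls, and the log2 difference changed sign for 22 genes, running from -0.18 to 0.72 for Adipoq, -0.63 to 0.73 for Lep, -0.31 to 0.61 for Retn, -0.31 to 0.60 for Cfd, -0.14 to 0.90 for Rbp4, -0.0798 to 0.67 for Adipor2, -0.35 to 0.28 for Cebpa, -0.0813 to 0.67 for Lpl, -0.64 to 0.12 for Cd36, -0.51 to 0.38 for Fabp4, -0.87 to 0.15 for Pck1, -0.30 to 0.13 for Lpin1, -0.56 to 0.0795 for Dgat1, -0.49 to 0.40 for Plin2, -0.0796 to 0.92 for Cidec, -0.23 to 0.46 for Pnpla2, -0.49 to 0.63 for Pnpla3, -0.79 to 0.39 for G0s2, -0.0398 to 0.59 for Lipe, -0.25 to 0.67 for Mgll, -0.57 to 0.40 for Insr and -0.30 to 0.55 for Nnat. The replicate numbers did not pair the mice (correlations of deviations from -0.0183 to 0.0531 between same-numbered mice, and 3 of 7 closest to their own number). Vehicle 8 has no same-numbered BDE-47 mouse, so with the number as a block it did not enter the difference, and for all 39 genes the value equalled that without vehicle 8. With this block the lower calls were 1 and the median difference was -0.0903, with a log2 difference of -0.0903 for Adipoq, -0.18 for Cfd, -0.14 for Rbp4, -0.0798 for Adipor2, -0.35 for Cebpa, -0.000112 for Lpl, -0.29 for Fabp4, -0.0796 for Cidec, -0.0752 for Pnpla2, -0.49 for Pnpla3, -0.79 for G0s2, -0.25 for Mgll, -0.57 for Insr and -0.16 for Nnat. Array weights gave 1 lower call and a median of -0.00741, with a log2 difference of -0.0138 for Adipoq, -0.0879 for Retn, -0.00503 for Cfd, -0.0312 for Rbp4, -0.00741 for Cebpa, -0.46 for Fabp4, -0.14 for Plin2, -0.18 for Pnpla2, -0.12 for Pnpla3, -0.35 for G0s2, -0.0364 for Mgll and -0.19 for Insr. Median-of-ratios scaling raised BDE-47 minus vehicle by 0.0923 (by 0.127 in the 13 mice, where the median difference was then -0.61) and turned the difference of Lep to 0.12 and of Lpin1 to 0.0648. With detection in all mice required there were 0 higher calls, because Irs1 was left out. Spearman's rho gave a median pairwise value of 0.700. No sign turned with log2(CPM + 1), log2(CPM + 0.1), no filter or no trend. The cause of the other changes was not tested.

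For the 13 mice, alternatives chosen after seeing the data gave 13 to 16 lower calls. Array weights gave 2 lower calls after adjustment (Fabp4, adjusted p = 0.00165, and Pck1, adjusted p = 0.0014, by limma) and 1 higher unadjusted call, and median-of-ratios scaling gave 1 higher. Leaving out a further mouse gave 12 to 21 lower and 0 to 1 higher unadjusted calls, and 0 to 3 lower calls after adjustment (3 without vehicle 2, 1 without BDE-47 3). The floor of 1 CPM in the deposited values hides any lower level of Gpam and Aqp7, in libraries of 10.1 to 19.6 M reads.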

Other observations

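Brown and beige fat markers were summed as for the other tissues. Their sum (6 genes, log2(CPM + 1)) was at 3.19 to 8.19 in the 6 vehicle mice, at 1.38 and 6.22 in vehicle 6 and 8, and at 2.81 to 9.82 with BDE-47, and the BDE-47 mean was 0.17 lower (exact permutation p = 0.880, two-sided, n = 6 and 7). The 9.82 was in BDE-47 6, the mouse with the muscle markers, and the other 6 BDE-47 mice were at 2.81 to 7.44. In BDE-47 6, Cox8b and Cox7a1 were at 8.66 and 8.89, above every other mouse. The difference without that mouse was not tested. Ucp1, the uncoupling protein of heat-producing fat, was above 1 CPM in 7 mice of both treatments, from 2.20 in BDE-47 6 to 5.72 in vehicle 5, and listed at 0 in the others. In the 13 mice the sum had r = -0.0458 with Adipoq (rho = -0.0275, permutation p = 0.880 and 0.934, adjusted p = 0.880 and 0.954). Without BDE-47 6 and vehicle 1 it was 0.397. Within the groups r was 0.626 in the 6 vehicle mice and -0.54 with BDE-47.

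The other marker sums, like those above, overlapped between the 6 vehicle and 7 BDE-47 mice. BDE-47 minus vehicle was -0.22 for fibroblasts (exact permutation p = 0.635), -0.05 for macrophages (exact p = 0.920), -0.48 for blood (exact p = 0.280), 0.41 for keratinocytes (exact p = 0.118), -0.87 for B cells (exact p = 0.384) and 1.58 for skeletal muscle (exact p = 0.515), the last with BDE-47 6 at 16.42. Macrophage markers were at 10.40 and 10.91 in vehicle 6 and 8, above the 6.78 to 9.34 of all 13 other mice.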
